A study of Mus musculus with 7 samples.

Results

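The cytosolic ribosomal protein genes encode the proteins of the 40S and 60S ribosomal subunits. They were taken as every row of the deposited table whose name was Rpl or Rps with a number and an optional a, x or l, together with Rplp0 to Rplp2 and Rpsa. The rule found 84 genes among 24354. By their names, 33 were counted as 40S and 51 as 60S, the stalk included. These counts hold paralogs and Rps4l, which is annotated as a pseudogene. Of the 84, 81 reached 1 FPKM in at least 1 library, where FPKM counts sequenced fragments per kilobase of transcript, adjusted for library size. Rpl10l, Rpl39l and Rpl3l did not, and Rps4l did so in 1 library only.

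RNA sequencing was carried out on 7 mouse libraries from material dated embryonic day 13.5. The mouse embryonic fibroblasts (MEFs) carried Oct4-CreER and Rosa26-loxSTOPlox-EYFP on a C57BL/6-Pou5f1 x 129X1/SvJ background, and came from embryos without head, internal organs and spinal cord. Induced neural stem cells (iNSCs) are fibroblasts infected with viral reprogramming factors and kept in neural stem cell medium. The libraries pOKSM, pBKSM, mcBKSM clone 1 and mcBKSM clone 3 had the genotype and strain of the MEFs. Their names give the factors by letter, BKSM having B in place of the O of OKSM. In them p marks a polycistronic vector, with the factors on a shared transcript, and mc marks monocistronic vectors, with separate transcripts. The DTA iNSC line carried Oct4-CreER with a Cre-dependent diphtheria toxin gene (Rosa26-loxSTOPlox-DTA), its strain is labelled unknown, and its vector is not given. Control neural stem cells (cNSCs) came from cerebral cortex of OG2/ROSA26 embryos. Each library was made from RNA pooled over 2 to 3 biological replicates, per the labels, so only mcBKSM, with 2 clones, had more than 1 library, and strain cannot be told apart from cell class for cNSC and DTA.

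A ribosome joins one copy of nearly every one of these proteins to ribosomal RNA, and the genes are known for being expressed together in proportion. Their mRNAs begin with a 5′ terminal oligopyrimidine (TOP) tract through which mTOR signalling controls translation, and their transcription rises with growth and with Myc activity. Rplp0, Rplp1 and Rplp2 form the stalk that recruits elongation factors, Rps6 is the substrate of S6 kinase, and Rpl5 and Rpl11 can bind Mdm2 outside the ribosome. A few members are copies with restricted or variable use, such as Rpl3l in muscle and Rpl10l and Rpl39l in testis.

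The number of fragments per library, estimated from the step between low values, was 10.65 (pBKSM) to 15.61 (DTA) in units of 1e+06. Sox2, a neural stem cell factor, was listed at 0 in MEF and lay between 87.6 and 390 FPKM elsewhere. Where the virus delivered Sox2, its reads could add to the Sox2 values of the iNSC libraries. Fabp7, a neural stem cell marker, was listed at 0 in MEF and lay between 459 and 5051 FPKM elsewhere. The summed FPKM of 10 fibroblast markers was 4690 in MEF, 255 in pBKSM, 136 in cNSC and 134 in pOKSM. It was at most 56.3 in the clones and DTA. Single fibroblast markers differed. The collagen gene Col1a2 was 462 FPKM in MEF and at most 0.0821 FPKM elsewhere. S100a4 was 3002 FPKM in MEF, 81.1 in cNSC and at most 7.35 FPKM elsewhere. Fbln2 was higher in pBKSM (249 FPKM) than in MEF (198), and was 102 FPKM in pOKSM and 53.9 in cNSC. The summed FPKM of 6 astrocyte markers was 467 in DTA, 573 in cNSC and 533 in pBKSM, against 152 to 182 in pOKSM and the clones. Single astrocyte markers differed. Aldoc alone was 411 FPKM in DTA and 431 in pBKSM, but 165 in cNSC and 102 to 127 in pOKSM and the clones. Aqp4 was 12.7 FPKM in DTA and at most 1.21 FPKM elsewhere, and S100b was 61.5 FPKM in pBKSM and at most 4.31 FPKM elsewhere. The summed FPKM of 8 neuron markers was 277 in pBKSM, 204 to 258 in pOKSM and the clones, 126 in DTA, 132 in cNSC and 13.8 in MEF. Single neuron markers differed: Map2 was highest in pBKSM at 259 FPKM, while Rbfox3 was 19.9 to 29.7 FPKM in pOKSM and the clones and at most 1.62 FPKM elsewhere. The summed FPKM of the 6 germ cell markers was at most 0.906, and that of the 8 muscle markers at most 1.89.

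Because most members moved together between libraries, the promoters of 4 of them are shown, picked after their sequences had been searched. They are RefSeq sequences of GRCm38.p6, read 5′ to 3′ on the gene's strand from 200 bases before to 20 bases after the annotated start. Capitals mark CTTCCG or its reverse complement CGGAAG, the letters at the core of sites for ETS family and related factors. Rps12 and Rps18 are 40S genes that lay far lower in DTA or cNSC than in other iNSCs, Rpl36a is an X-linked 60S gene, and Rpl22l1 is a 60S paralog with a pattern of its own.
Rps18 (chr17:33955646-33955865, minus strand): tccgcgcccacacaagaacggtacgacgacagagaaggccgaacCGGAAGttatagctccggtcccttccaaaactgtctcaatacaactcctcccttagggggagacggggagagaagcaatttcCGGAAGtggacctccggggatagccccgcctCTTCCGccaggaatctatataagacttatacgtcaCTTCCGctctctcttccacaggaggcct
Rps12 (chr10:23787190-23787409, minus strand): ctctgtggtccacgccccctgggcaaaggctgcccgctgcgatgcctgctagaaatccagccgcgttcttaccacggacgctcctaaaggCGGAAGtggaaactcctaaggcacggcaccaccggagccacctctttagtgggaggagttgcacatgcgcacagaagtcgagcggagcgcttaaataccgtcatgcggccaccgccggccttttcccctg
Rpl36a (chrX:134585454-134585673, plus strand): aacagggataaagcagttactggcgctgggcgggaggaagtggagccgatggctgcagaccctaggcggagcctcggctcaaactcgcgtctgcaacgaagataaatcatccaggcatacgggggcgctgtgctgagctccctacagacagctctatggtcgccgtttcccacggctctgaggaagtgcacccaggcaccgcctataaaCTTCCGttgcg
Rpl22l1 (chr3:28805308-28805527, plus strand): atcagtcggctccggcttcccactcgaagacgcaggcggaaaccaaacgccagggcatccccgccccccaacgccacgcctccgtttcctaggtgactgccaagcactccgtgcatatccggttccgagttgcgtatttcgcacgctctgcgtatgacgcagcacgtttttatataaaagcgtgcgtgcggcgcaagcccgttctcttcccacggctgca

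The printed stretch of Rps18 held 4 such matches, those of Rps12 and Rpl36a 1 each and that of Rpl22l1 0. RefSeq windows from 250 bases before to 50 after the start were found for 63 of the 84 members. CTTCCG on either strand stood in 42 of these 63 (66.7%), against 34.3% of 9802 other tested genes and 18.8% of all 27025 symbols in the promoter set. TCTCGCGA stood in 17.5% of members, against 2.31% of other tested genes and 1.13% of all symbols. CTCTTT stood in 44.4%, against 22.1% and 25.6%. The E-box CACGTG, which Myc can bind, stood in 9.52% of members, against 11.8% and 8.09%, and TATAAA in 11.1%, against 8.49% and 15.7%. In all, 14 motifs were searched on both strands, several of them overlapping, and those given here were picked after their shares had been seen. They describe letters in a window and no more.

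The members took up a very different share of the transcript signal in different libraries. Their summed FPKM was 25.1% of the summed FPKM of all genes in mcBKSM clone 3, 24.0% in clone 1, 23.05% in pOKSM and 21.1% in pBKSM. It was 16.7% in MEF, 13.5% in DTA and 12.6% in cNSC. DTA thus lay beside cNSC and below MEF, while the other 4 iNSC libraries lay above MEF. The median FPKM of the 81 members ran from 682 in cNSC and 736 in DTA through 981 in MEF to 1546 in pBKSM, 1590 in pOKSM, 1651 in clone 1 and 1776 in clone 3. In bulk RNA, fewer cells of a type and less RNA per cell cannot be told apart, and FPKM shows only shares of a library. The growth regulator Myc stood at 42.5 FPKM in cNSC, 47.8 in MEF, 50.1 in DTA and 78.9 in pBKSM, whereas pOKSM had 339 and the clones 450 and 485. pBKSM thus combined a high ribosomal protein share with a low Myc level. Where the virus delivered Myc, its reads could add to the Myc values of the iNSC libraries. These values therefore need not be those of the cell's own gene. The part of Myc in the ribosomal protein levels was not tested.

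**Figure D1:**
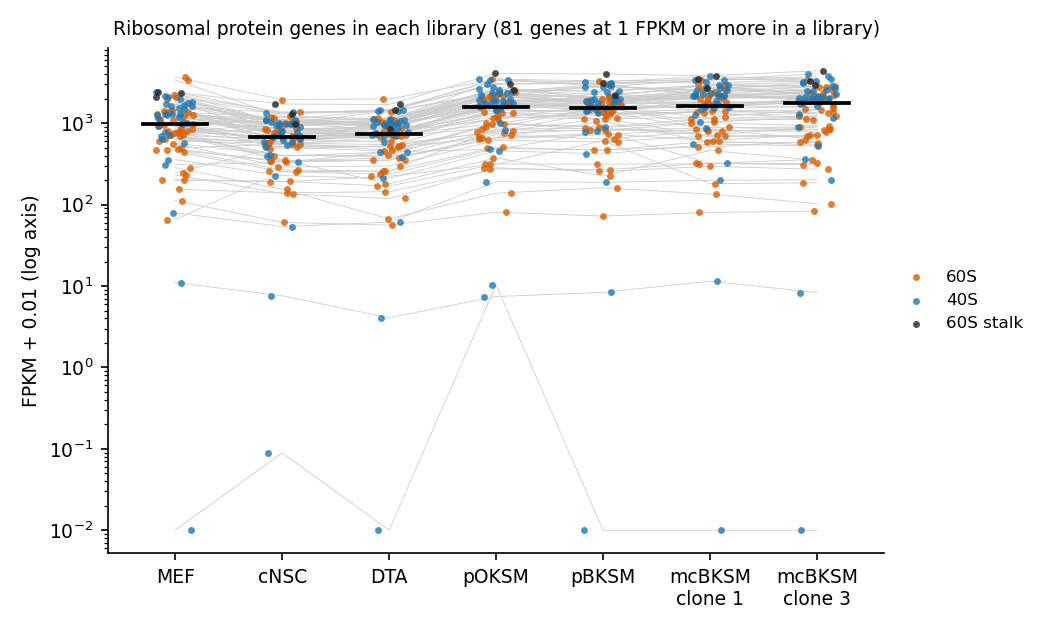
FPKM (plus 0.01, log axis) of the 81 members in each of the 7 libraries; each point is a gene coloured by subunit, grey lines join a gene across libraries and black bars are medians. The medians of cNSC (682) and DTA (736) lie below that of MEF (981), and those of the other iNSC libraries lie between 1546 and 1776. Rps27 and Rps4l are the genes at or near 10 FPKM and below.

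Within a library the genes were far from equal on this length-corrected scale. By their median over the 7 libraries, the highest were the stalk gene Rplp1 (3843 FPKM), Rpl41 (3434 FPKM), which encodes a very short 60S peptide, and the 40S gene Rps12 (3215 FPKM). The lowest were Rpl10l, Rpl39l, Rpl3l and Rps4l, all with a median of 0. Rps27 stood at 4.07 to 11.5 FPKM, whereas Rps27rt, a near-identical copy outside the name rule, stood at 958 to 4739 FPKM. Reads of that pair cannot be assigned with certainty, and their summed FPKM was 966 in cNSC, 1367 in DTA, 1677 in MEF and 3484 to 4747 in the other 4 libraries. The widest ranges over libraries were those of Rpl29 (3.77 on the log2(FPKM + 1) scale), Rps4l (3.51), Rps18 (2.54) and Rpl35a (2.49).

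The DTA line was compared with the other 4 iNSC libraries. Its alleles allow cells that switch on Oct4 to be killed by the toxin. Rps15a, a 40S gene at chr7:118104372-118116188 (GRCm38), was 60.9 FPKM in DTA, against 191.5 in pOKSM, 187.9 in pBKSM, 199 in clone 1 and 202 in clone 3 (mean 195 ± 6.75, SD, n = 4). Rps12, a 40S gene at chr10:23785183-23787275, was 1077 FPKM in DTA, against 3374 in pOKSM, 3215 in pBKSM, 3776 in clone 1 and 3497 in clone 3 (mean 3466 ± 237, SD, n = 4). In both genes DTA lay well below each other iNSC library and near cNSC, at 53.9 and 1007 FPKM. Rps15a fell by 1.66 ± 0.12 on the log2 scale (SE; limma, adjusted p = 0.0195) and Rps12 fell by 1.68 ± 0.16 (adjusted p = 0.0473).

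These were the only members called in this comparison at an adjusted p under 0.05 over all genes, 2 of 81, both lower, beside 0.355% of the 12378 genes tested in either direction and 0.153% lower. The direction was far more general than the calls. DTA was below each of the other 4 iNSC libraries for 78 of the 81 tested members, beside 28.6% of all tested genes; the exceptions were Rpl22l1, Rps27l and Rps4l. The median difference over the members was -1.11 (all genes: -0.011), and 71 members had an unadjusted p under 0.05, beside 20.5% of all genes. All 81 differences were below 0, as were 72 of them under quantile normalization. With equal summed FPKM 82 members were tested, of which 80 were below 0 and 2 above. The calls were fragile, since without pBKSM 71 members were called lower, beside 32.3% of all genes in either direction and 16.7% lower. Without pOKSM, clone 1 or clone 3 no member was called, beside 0.0243%, 0% and 0.0163% of all genes, so hardly any gene was called there. Under quantile normalization, which forces all libraries to one distribution, the median was -0.373 and none was called, beside 0.275% of all genes, and with each library rescaled to the same summed FPKM it was -0.777 while the median of all genes moved to 0.299.

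**Figure D2:**
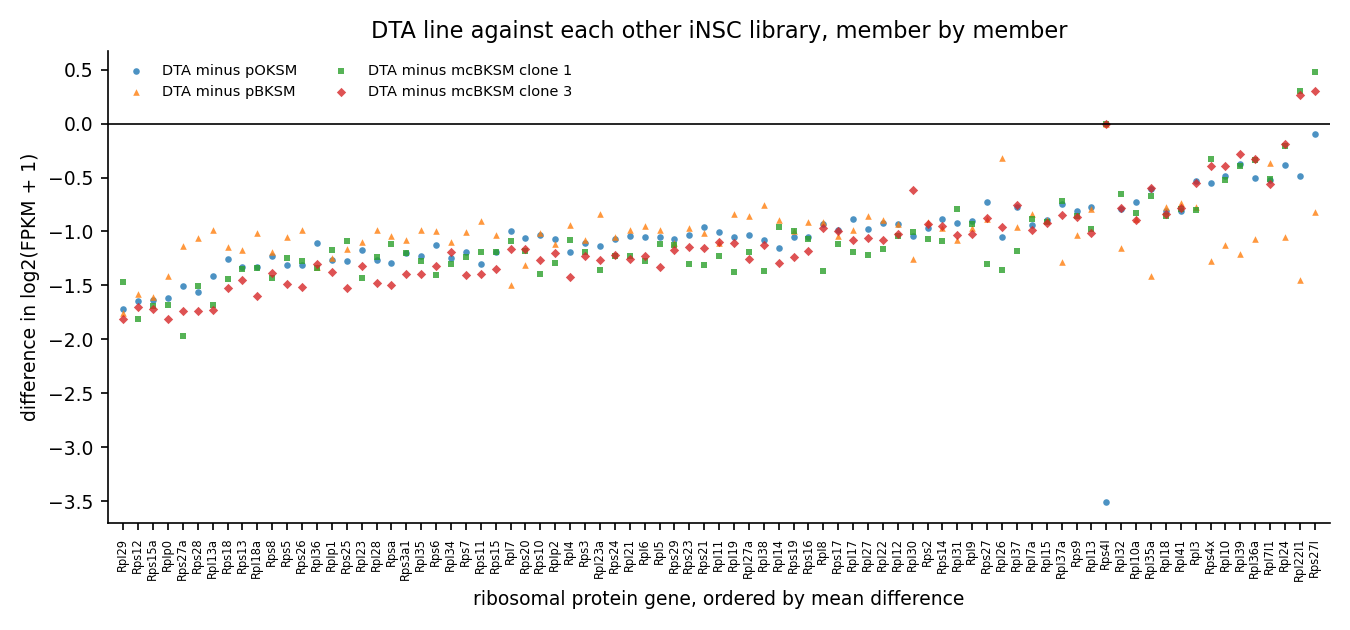
Difference in log2(FPKM + 1) between DTA and each other iNSC library for the 81 tested members, ordered by the mean difference; each marker shape is one of the 4 libraries. Nearly all points lie below 0, around the median of -1.11; Rpl22l1 and Rps27l lie above 0 against the clones, and Rps4l is far lower against pOKSM.

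Rpl29, a 60S gene, had the largest difference of the 81 (-1.69, adjusted p = 0.0552 by limma) and was not called, at 257 FPKM in DTA and 715 to 904 FPKM in the other 4. Rps12 also lost its call with median-ratio scaling, equal summed FPKM, a pseudocount of 0.1 or no filter (limma, adjusted p from 0.0511 to 0.0745), and Rps15a kept it in those 4. Both stayed lower throughout.

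DTA and cNSC were the lowest libraries for each stalk gene. Rplp0 was 843 FPKM in DTA and 988 in cNSC, against 2357 in MEF and 2245 to 2963 in the other iNSC libraries. Its difference between DTA and those 4 was -1.63 ± 0.20 (SE; limma, adjusted p = 0.0627), which missed the threshold, and it was called only without pBKSM (-1.70, adjusted p = 0.0111). Rplp1 was 1704 FPKM in DTA against 4101 ± 242 (SD, n = 4), and Rplp2 was 1436 FPKM against 3234 ± 225 (SD, n = 4). In each stalk gene DTA lay outside the range of the other iNSC libraries.

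Members studied for roles outside the ribosome or in Diamond-Blackfan anaemia, an inherited failure of red cell production, followed the others. Rps19, the gene most often mutated in that disease, was 787 FPKM in DTA against 1659 ± 133 (SD, n = 4) in the other iNSCs. Rpl5 was 237 FPKM against 518 ± 55.2, Rpl11 was 794 FPKM against 1715 ± 113, and Rps6 was 209.7 FPKM against 491 ± 61.9. The limma adjusted p of these 4 genes lay between 0.0641 and 0.0791, so none was called with all libraries. The ubiquitin fusion gene Rps27a was 697 FPKM in DTA against 2144 ± 510.2 (adjusted p = 0.112). Fau, a ubiquitin-like fusion gene outside the name rule, was 591 FPKM in DTA and 1175 to 1571 FPKM in the other iNSCs.

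The ribosomal protein level of DTA was close to that of cNSC. Over the 80 members at 1 FPKM in either library, the median difference of DTA minus cNSC was 0.022 (all genes: 0.0012), and 75 lay within 1.5-fold. The share of all genes within 1.5-fold was not taken. At 2-fold or more, 2 members were higher and 1 was lower in DTA, beside 5.44% and 6.64% of all genes. Most genes of these libraries were thus alike within 2-fold, members or not. DTA and cNSC were both below each of the other 5 libraries for 66 of 81 members, beside 10.4% of all tested genes. Rps2 and Rpl30 went furthest from this likeness: Rps2 was 1126 FPKM in DTA and 515 in cNSC, and Rpl30 was 66.9 FPKM in DTA and 154 in cNSC. With 1 library on each side, these differences have no replicate check. The summed FPKM of astrocyte markers was also higher in DTA and cNSC than in pOKSM and the clones, though single markers differed. pBKSM shared that high sum without the low ribosomal protein share. The part of cell makeup was not tested.

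Induced cells as a class were compared with cortical neural stem cells. Rps2, a 40S gene, was 515 FPKM in cNSC and 1126 to 2368 FPKM in the 5 iNSC libraries, and Rps18 was 547 FPKM in cNSC and 1104 to 3176 FPKM in the iNSCs. In both the lowest iNSC library was DTA, and cNSC lay below all 5. The differences were 1.91 ± 0.52 for Rps2 (SE; limma, adjusted p = 0.216) and 2.08 ± 0.66 for Rps18 (adjusted p = 0.282), and neither was called. Rps26 followed at 1.56 ± 0.69 (adjusted p = 0.405), and the lowest differences were Rpl30 (-0.41), Rpl26 (-0.23) and Rps27 (-0.0022).

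None of the 81 members was called in that comparison, beside 1.17% of all genes, and 2 had an unadjusted p under 0.05, beside 13.6% of all genes. The median difference was 0.864, against 0.0049 for all genes, and 78 members had a positive difference (63 under quantile normalization). The result turned on DTA: without it 42 members were called higher, beside 6.82% of all genes in either direction and 2.73% higher, among them Rps18 (2.35, adjusted p = 0.0145), Rps2 (2.10, adjusted p = 0.00861) and Rplp0 (1.40, adjusted p = 0.0374). Leaving out any other iNSC library gave no call among the members, beside 0.384% (without pOKSM) to 1.03% (without pBKSM) of all genes. cNSC lay below each iNSC library other than DTA for 75 of 81 members, beside 30.1% of all genes. Quantile normalization lowered the median to 0.303.

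Against fibroblasts the picture was uneven. Rpl29, a 60S gene at chr9:106429454-106431568, was 65.4 FPKM in MEF, against 848.5 in pOKSM, 870.1 in pBKSM, 715 in clone 1, 904 in clone 3 and 257 in DTA (mean 719 ± 268, SD, n = 5). All iNSC libraries were higher, as was cNSC at 256 FPKM. Rpl29 rose by 3.31 ± 0.73 on the log2 scale (SE; limma, adjusted p = 0.0345) and was the 1 member of 81 called, beside 16.3% of all genes in either direction and 6.77% higher. The call was lost without any 1 of pOKSM, pBKSM, clone 1 or clone 3, at adjusted p from 0.0628 to 0.0875, and held without DTA (adjusted p = 0.000627). Ribosomal protein genes have many processed copies in the genome, and how reads shared with them were assigned is not given in the sources used here.

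The median difference from MEF was 0.355, against 0.031 for all genes. Without DTA 22 members were called higher and 2 lower, beside 24.7% of all genes (10.8% higher and 13.8% lower), and the highest after Rpl29 were Rpl35a (1.90, adjusted p = 0.0324) and Rps18 (1.47, adjusted p = 0.0133). The lower ones were Rpl30 (-1.10, adjusted p = 0.0477) and Rpl7l1. MEF lay below each iNSC library for 9 members, among them Rpl11, Rpl35a, Rps18 and Rps19, beside 31.8% of all genes. Without DTA it lay below each iNSC library for 65 members, beside 37.1% of all genes. With or without DTA, 5 members had MEF above each iNSC library: Rpl26, Rpl30, Rpl41, Rpl7l1 and Rpl8, beside 31.7% of all genes. Rpl26 was 710.1 FPKM in MEF and 181 to 464 FPKM in the iNSCs, and Rpl30 was 285 FPKM in MEF and 66.9 to 161 FPKM in the iNSCs. In cNSC against MEF, 72 of 80 members were lower in cNSC, with a median of -0.614 beside -0.023 for all genes. At 2-fold or more, 13 of the 80 were lower, a share near the 15.5% of all genes. This comparison of 1 library with 1 has no test.

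pBKSM was compared with the mcBKSM clones, where the only residual spread comes from those 2 clones. Rpl22l1, a paralog of Rpl22 at chr3:28805436-28807424, was 611 FPKM in pBKSM, 182 in clone 1 and 186 in clone 3, and 314 in pOKSM, 224 in DTA, 199.9 in MEF and 191 in cNSC. pBKSM was the highest of the 7 libraries, and pOKSM came next. Rpl22l1 rose by 1.73 ± 0.08 in pBKSM against the clones (SE; limma, adjusted p = 0.0402), the 1 member of 81 called beside 5.82% of all genes in either direction and 3.74% higher, and was not called under quantile normalization (adjusted p = 0.0531) or with equal summed FPKM (adjusted p = 0.0521). Its parent Rpl22 was 269 FPKM in pBKSM and 307 and 324 FPKM in the clones. Most members went the other way by little: 52 of 81 were lower in pBKSM than in both clones, beside 42.9% of all genes, and the median difference was -0.171.

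Rps27l, a p53-responsive paralog of Rps27, had a like profile, with 790.5 FPKM in pBKSM, 478 in pOKSM, 447 in DTA, 321 and 362 in the clones, 330 in cNSC and 309 in MEF. Its difference between pBKSM and the clones was 1.21 ± 0.14 (SE; limma, adjusted p = 0.0672), not called, and it was called with a filter of 5 FPKM (adjusted p = 0.0424). Rpl7l1, a paralog of Rpl7 with a role in ribosome assembly, stayed between 56.0 FPKM in DTA and 112 FPKM in MEF, while Rpl7 ran from 967 to 2958 FPKM. Rpl10l was listed at 0 in all 7 libraries, where 3 fragments would give 0.188 to 0.275 FPKM. Rpl3l was at most 0.0994 FPKM and below the level of 3 fragments throughout. Rpl39l passed that level in DTA alone, at 0.462 FPKM or about 4.88 fragments, beside 548 to 1588 FPKM for its parent Rpl39.

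**Figure D3:**
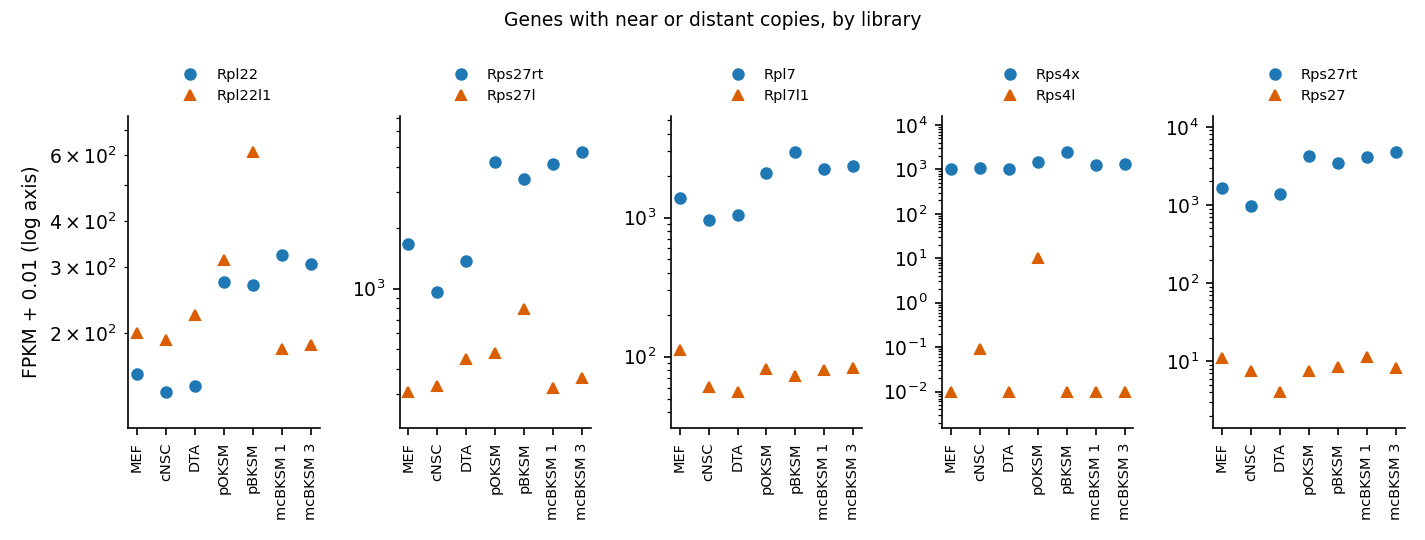
FPKM (plus 0.01, log axis, a separate scale in each panel) of 5 pairs of related genes in the 7 libraries; circles and triangles are the genes named above each panel. Rpl22l1 and Rps27l peak in pBKSM at 611 and 790.5, unlike Rpl22 and Rps27rt, and Rps4l reaches 10.4 in pOKSM and is near 0 elsewhere.

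In pOKSM against the clones none of the 81 members was called, beside 0% of all genes, and 2 had an unadjusted p under 0.05, beside 8.58% of all genes. The median difference was -0.0981. Rps4l, a processed copy of Rps4x on chromosome 6 that the annotation lists as a transcribed pseudogene, was 10.4 FPKM in pOKSM, about 104 fragments. It was 0.0794 FPKM in cNSC, about 1 fragment, and was listed at 0 in the other 5 libraries. The difference was 3.51 (limma, adjusted p = 0.148), and it was called with a pseudocount of 0.1 (adjusted p = 0.0416) or a filter of 5 FPKM (adjusted p = 0.0210). The next differences were Rpl22l1 (0.77) and Rps27l (0.49) upward, and Rps27 (-0.35), Rps27a (-0.35) and Rps10 (-0.29) downward.

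The smaller differences between the lines were set out by chromosome, a view chosen after the values were seen. The 4 X-linked members, Rpl10, Rpl36a, Rpl39 and Rps4x, were each higher in pBKSM than in both clones, by 0.67 to 0.92. Rps4x was 2433 FPKM in pBKSM, 1262 and 1315 in the clones and 1004 to 1469 in the rest. None of the 4 was called. The 331 other X-linked genes at 5 FPKM or more had a median of 0.758 in the same comparison, and 86.1% of them were above 0. In pBKSM against the clones the X-linked members thus lay where other genes of that chromosome did. In DTA against the other iNSCs they did not, with a median of -0.599 beside 0.484 for the other X-linked genes. Xist was at most 0.182 FPKM in every library. The Y-linked gene Ddx3y was listed at 0 in MEF and was 0.0391 FPKM in DTA, against 11.4 to 28.3 FPKM in the other 5 libraries. It was 16.4 FPKM in cNSC, whose strain label speaks of female mice, without saying whether the embryos are meant. Eif2s3y, also Y-linked, was 48.2 FPKM in cNSC and 31.2 FPKM in pBKSM, and at most 0.0730 FPKM elsewhere. The part of sex chromosomes in the other results was not tested.

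On chromosome 1 the 3 members were all higher in pBKSM, with a median of 0.376 beside 0.268 for the other genes. On chromosome 6, Rpl32 was higher by 0.44 beside 0.396 for the other genes, while Rps4l was listed at 0 in pBKSM and the clones. On chromosomes 2 and 14 the members had medians of -0.158 and -0.098, beside -0.128 and -0.098 for the other genes. On several other chromosomes the likeness was partial or absent. The 7 members on chromosome 11 were all lower in pBKSM, with a median of -0.477 beside -0.169 for the other genes there. On chromosome 16, Rpl24 and Rpl35a were higher in pBKSM by 0.86 and 0.78 while the other genes had a median of 0.192. On chromosome 3, Rpl22l1 stood apart from both the other members and the other genes (median -0.170). Between clone 1 and clone 3, the 4 members on chromosome 15 and the 7 on chromosome 11 were all higher in clone 1, where other genes had medians of 0.323 and 0.175, and the 7 on chromosome 9 were all lower, where other genes had a median of -0.283. Both members on chromosome 18 were higher in clone 1, where other genes had a median of 0.162. Members on chromosomes 9, 11 and 15, picked for this, had a median absolute difference of 0.299 between the clones, against 0.098 for the other 63. On chromosome 15, where Rpl30 and Rpl8 lie, 73.8% of the other genes were higher in MEF than in the mean of the other 6 libraries. Rpl37, also there, was higher in MEF by 0.52, while Rpl3 went the other way (-0.36). Rpl26, Rpl41 and Rpl7l1 lie on chromosomes 11, 10 and 17, where other genes had medians of -0.074, -0.0059 and 0.260. DNA copy number was not measured here.

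**Figure D4:**
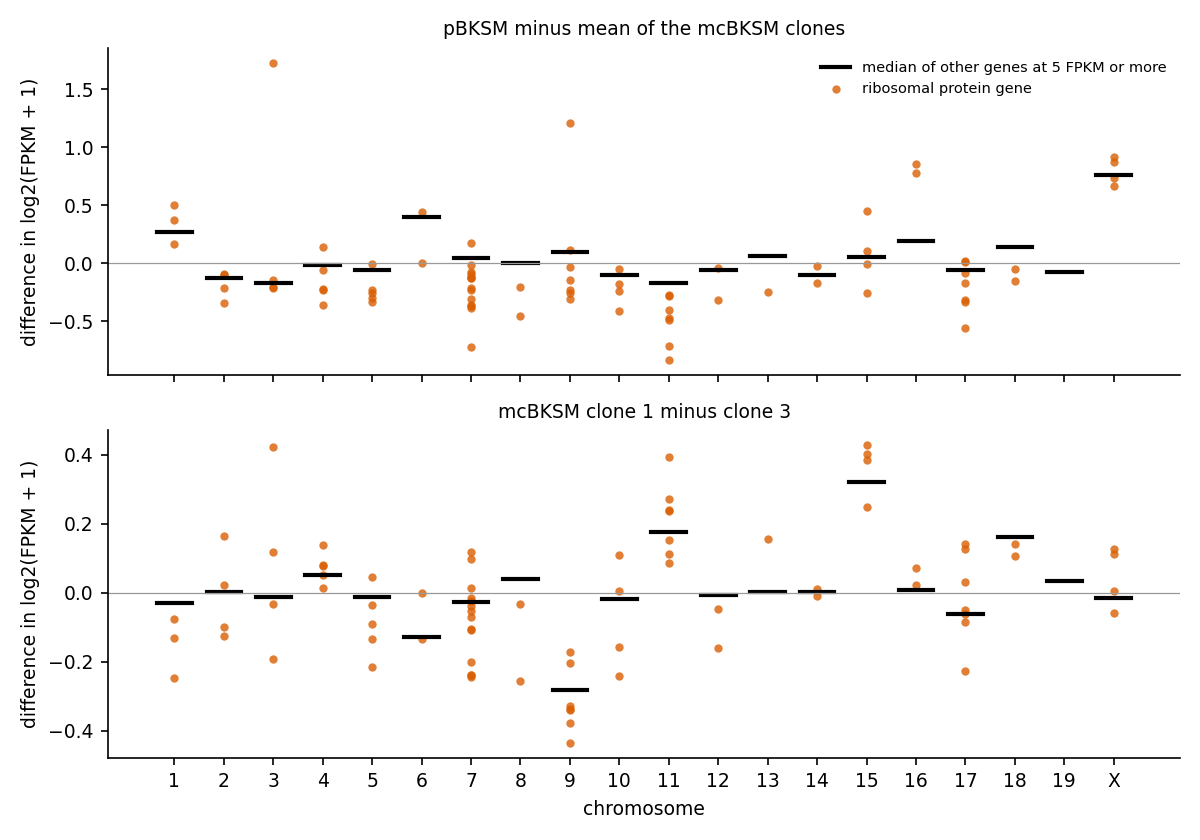
Difference in log2(FPKM + 1) by chromosome for pBKSM minus the mean of the mcBKSM clones (top) and for clone 1 minus clone 3 (bottom); points are ribosomal protein genes and bars are medians of other genes at 5 FPKM or more. The X-linked points lie at 0.67 to 0.92 beside a bar at 0.758, and chromosomes 9, 11 and 15 stand apart between the clones.

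Other genes of ribosome production and of the TOP class were then described with lists. In DTA against the other iNSCs none of their members was called, beside 0.355% of all genes. Without pBKSM, where 16.7% of all genes were called lower, 39 of 51 ribosome biogenesis factors, 14 of 18 other TOP genes, 9 of 12 snoRNA host genes, 11 of 24 RNA polymerase I and III subunits, 26 of 76 mitochondrial ribosomal protein genes, 6 of 14 proteasome genes and 2 of 11 TOP regulators were called lower. The median difference was -1.34 for 12 noncoding host genes of small nucleolar RNAs, such as Gas5, at 28.5 FPKM in DTA and 53.5 to 89.9 FPKM in the other iNSCs. It was -0.808 for 18 other TOP genes, all of them below 0, such as Eef1a1, the main elongation factor, at 4669 FPKM in DTA and 8303 to 10229 FPKM in the others. It was -0.787 for 51 ribosome biogenesis factors, -0.477 for 24 RNA polymerase I and III subunits and -0.455 for 76 mitochondrial ribosomal protein genes. The proteasome core, an abundant complex unrelated to ribosomes, had a median of -0.527, and 11 regulators of TOP translation, such as Mtor, a median of -0.054.

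Abundance and length alone were also looked at. Other genes with a median of 100 FPKM or more and transcripts under 800 bases had a median difference of -0.333 (175 genes), against -1.11 for the 49 members of that length. In pBKSM the biogenesis factors and the snoRNA hosts were low beside the clones, with medians of -0.433 and -0.656, while the cytosolic members differed by -0.171. Nmd3, an export adaptor of the 60S subunit, was called lower there, beside 2.08% of all genes (39.5 FPKM against 91.4 and 95.1; limma, adjusted p = 0.0477). Against MEF, 5 of 51 biogenesis factors were called lower in iNSCs, beside 9.55% of all genes, and 0 higher; Utp20 (-1.34, adjusted p = 0.0153) and Eif6 (-1.31, adjusted p = 0.0148) had the largest differences.

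**Figure D5:**
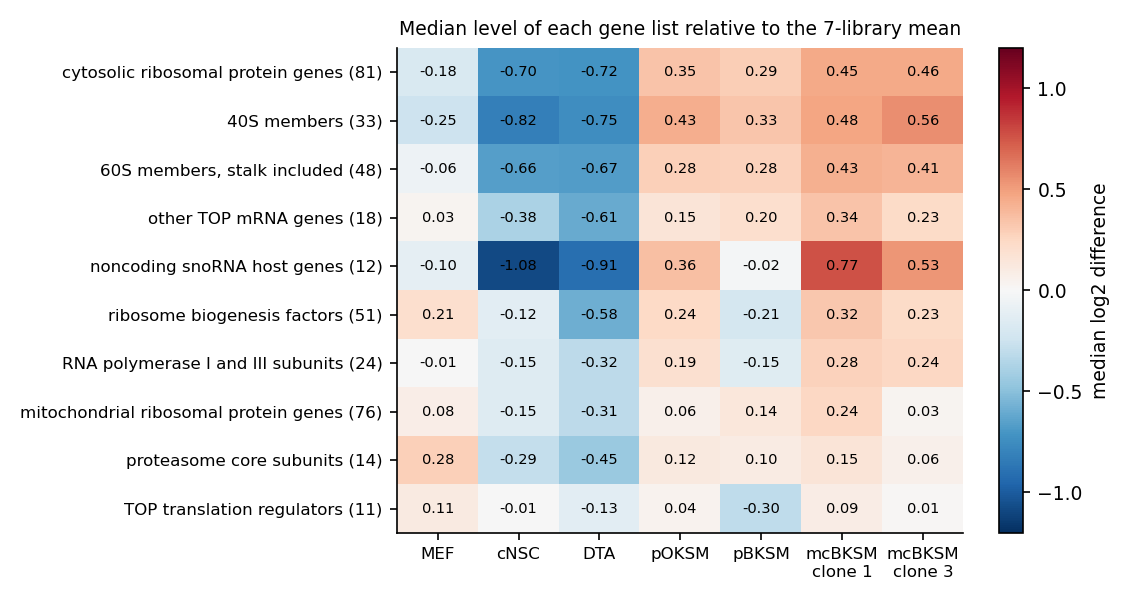
Median over each list of log2(FPKM + 1) relative to the gene's mean over the 7 libraries; rows are gene lists with the number of genes at 1 FPKM, columns are libraries and colour and print give the median. The cytosolic members are at -0.704 in cNSC and -0.717 in DTA and above 0.29 in the other iNSC libraries, a wider range than that of the mitochondrial ribosomal protein genes.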

How the data were processed

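RNA sequencing gave FPKM for 24354 gene symbols in 7 libraries, as the authors deposited them. The submitters' processing notes name Cufflinks 2.2.1 with Cuffnorm, STAR 2.5.2b, the mm10 build and R 3.3.2, without saying what each did. FPKM is scaled by transcript length and library size, so total RNA per cell is not visible in it. Values were analysed as log2(FPKM + 1), which understates changes of low genes. Genes with at least 1 FPKM in a library of the fit were tested with limma-trend 3.58.1 (R 4.3.3), with Benjamini-Hochberg adjustment over all genes, and were called at an adjusted p under 0.05. The 3 classes shared 1 fit. The 6 label groups shared another, whose only spread (1 residual degree of freedom) is that between both mcBKSM clones. DTA was set against the other 4 iNSC libraries in a fit of its own. Single libraries were taken to vary as the replicated side does, and p-values measure spread between lines or clones. Read counts were not used here, so depth is approximate, and limits from 3 fragments cover counting error only. Coordinates are from GENCODE M21 (GRCm38).

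The members and lists were chosen with earlier results of these data known. Named were called members, or the 3 largest differences each way where none was called, the 3 highest and 3 lowest levels, the 4 widest ranges, paralogs with their parents, stalk and fusion genes, and Rps6, Rpl5, Rpl11 and Rps19. A gene that this rule also covers is not reported here. Promoters, motifs and chromosomes were picked after values were seen.

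The fits were tested on simulated data, 50 genes being changed by each size, under 3 spread models, the last added because the earlier ones recovered nothing in the fit resting on the 2 clones. For pBKSM against mcBKSM, 0 of 50 genes changed by a log2 size of 3 were recovered with spreads resampled or taken gene by gene (12035 and 11957 genes), and 50 of 50 with a smooth trend (11759 genes). The pOKSM comparison gave 0, 0 and 50 of 50 (12061, 11967 and 11768 genes). Recovery in both thus rests on the assumed spread. For DTA, log2 changes of 1 were recovered for 0, 0 and 15 of 50 genes and changes of 2 for 11, 11 and 49 of 50 (13320, 12315 and 12206 genes). The simulated spreads came from all iNSC libraries, DTA included, while the real fit took its spread from those other than DTA. Recovery at the spread of the real DTA fit was thus not simulated. At a log2 size of 1, iNSC against MEF gave 3, 1 and 20 of 50 (13741, 12436 and 12289 genes) and iNSC against cNSC 1, 2 and 29 of 50 (13651, 12418 and 12287 genes).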

Additional observations from a re-analysis of the deposited data

Results flagged for a closer look

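In groups of 5 iNSC libraries, the lowest or highest library was set against the spread of the others. A gap above 0.71 of the whole range was taken as far apart. Chance gives this in about 1 of 20 groups. That share does not apply here, since several of the genes were named for called or extreme values in these same data. Of 34 values looked at, 16 passed. In 15 of these the far library was DTA, which was the lowest. Its level was 1077 FPKM for Rps12, 60.9 for Rps15a, 1104 for Rps18, 787 for Rps19, 1126 for Rps2, 209.7 for Rps6 and 708 for Rps10. It was 843 for Rplp0, 1704 for Rplp1 and 1436 for Rplp2, the stalk genes. It was 794 for Rpl11, 144 for Rpl22, 257 for Rpl29, 1990 for Rpl41 and 237 for Rpl5. The remaining one was Rps4l in pOKSM, at 10.4 FPKM, the highest. The genes share the DTA library, so these are not separate observations.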

How the results depend on the processing

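For the named genes, 1218 alternative values kept direction and side of the threshold, 51 passed it, 18 lost it and 30 changed sign, none of them of a called result; another 16 sign changes came from leaving out 1 clone, where there is no test. Leaving out 1 library in turn gave 0 to 24 members called in iNSC against MEF and 0 to 42 against cNSC. In DTA against the other iNSCs it gave 0 to 71. The highest counts came without DTA (24.7% of all genes), without DTA (6.82%) and without pBKSM (32.3%). The others were 0, beside 8.81% to 16.1%, 0.384% to 1.03% and 0% to 0.0243% of all genes. With 1 clone left out there is no test, and the median was -0.148 to -0.144 for pBKSM and -0.119 to -0.0576 for pOKSM. Under quantile normalization, 6 members were called against MEF (16.2% of all genes), 1 against cNSC (1.19%), 0 in pBKSM (4.97%) and 0 in DTA (0.275%), with medians of 0.303 against cNSC, -0.208 for pBKSM, -0.0215 for pOKSM and -0.373 for DTA. With equal summed FPKM the counts were 2 against MEF (14.7% of all genes), 0 in pBKSM (2.62%) and 1 in DTA (1.09%), with medians of -0.269 for pBKSM, -0.0825 for pOKSM and -0.777 for DTA. Median-ratio scaling gave 1 call in DTA (0.348%) and medians of -0.184 for pBKSM and -0.0932 for pOKSM. Without a filter, 2 were called in pBKSM (4.4%) and 5 in DTA (3.46%), with medians of -0.151 for pBKSM and -0.0897 for pOKSM; a filter of 5 FPKM gave 2 in pBKSM (13.5%) and 1 in pOKSM (0.0373%), and a pseudocount of 0.1 gave 1 in pOKSM (0.0537%) and 1 in DTA (0.137%). Without the 3 highest members the shares were 15.2% in MEF, 11.6% in cNSC, 21.04% in pOKSM, 19.3% in pBKSM, 22.0% in clone 1, 23.04% in clone 3 and 12.4% in DTA, by construction. Sign changes under quantile normalization were, against MEF, Rpl10 (-0.0290) and Rpl5 (0.110); against cNSC, Rpl10 (-0.195), Rpl11 (-0.0178), Rpl41 (-0.0225), Rps27 (0.110) and Rps4x (-0.343). In pBKSM they were Rpl11 (0.0485), Rpl29 (-0.225), Rpl3 (-0.0455) and Rps2 (0.0727), and in pOKSM Rplp0 (0.0414), Rps19 (0.0249), Rps2 (0.0727) and Rps26 (0.0246). In DTA they were Rpl3 (0.180), Rpl41 (0.0217), Rps27l (0.381) and Rps4x (0.254). With equal summed FPKM they were Rpl3 in pBKSM (-0.00596), Rplp1 in pOKSM (0.00245) and Rps27l in DTA (0.297), and with median-ratio scaling Rpl5 against MEF (0.00142). Over single libraries left out, Rpl10 against MEF ran from -0.0223 (without pBKSM) to 0.260, Rpl5 from -0.129 to 0.203 (without DTA) and Rplp0 from -0.305 to 0.148 (without DTA); Rps27 against cNSC ran from -0.137 to 0.187 (without DTA; 0.00433 without pOKSM), and in DTA Rpl22l1 ran from -0.555 to 0.0262 and Rps27l from -0.206 to 0.227, both highest without pBKSM. The cause of the other changes was not tested. No paired analysis was possible because every group except mcBKSM has a single library. For a 500-base transcript, 3 fragments come to 0.384 FPKM in DTA and 0.563 FPKM in pBKSM, which limits the silent paralogs only.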
